A study of Mus musculus with 8 samples.

Results

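A set of 7 genes of the T helper 17 (Th17) programme, Rora, Ahr, Il23r, Il1r1, Ccr6, Il17a and Il17f, were described across splenic T cells of mice with experimental autoimmune encephalomyelitis (EAE). They are 7 of the 18438 genes in the deposited table and were taken by their symbols. The set was chosen with earlier results of these data known, so it is not independent of them. Each symbol occurred once. Messenger RNA was sequenced from 4 groups of 2 libraries, all from spleens of C57BL/6 mice at day 7 of EAE induced with MOG, a myelin protein. CD4+ CD25hi YFP+ cells are called regulatory T cells (Treg) and CD4+ CD25- YFP- cells effector T cells (Teff). The groups were Treg of mice labelled IRE1a-/- (KO), Treg of wild-type (WT) mice, Teff of KO mice and Teff of WT mice. IRE1a, encoded by Ern1, detects unfolded proteins within the endoplasmic reticulum. The labels do not give which promoter drives YFP or the deletion, in which cells the deletion takes place, or whether both libraries of a group stem from different mice. The p-values therefore measure only how far these libraries vary, and that variation may be technical.

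Th17 cells are CD4 T cells that make interleukin 17 (IL-17), and they are best known for defence at mucosal surfaces and for driving EAE. IL-6 with TGF-beta starts the programme through STAT3 and nuclear receptors that include RORalpha (Rora), while IL-23 and IL-1 sustain it through their receptors. The aryl hydrocarbon receptor (Ahr), a ligand-activated transcription factor, promotes IL-22 in these cells and is also used by Treg. CCR6, the receptor for the chemokine CCL20, guides both Th17 cells and some Treg into inflamed tissue. Gamma delta T cells and innate lymphoid cells can carry the same receptors and cytokines.

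Values are the deposited normalized read numbers, which summed to between 17504097 and 18751258 per library. Fold changes were taken as differences of log2(value + 1), so those of weakly expressed genes are understated. They were tested with limma over 13358 genes, and a gene was called at a Benjamini-Hochberg adjusted p below 0.05. With 2 libraries a group, a lack of overlap between groups is a description only. Its share over all genes is not given here. As a check of the genotype labels, Ern1 had 326 and 359 in the KO Treg libraries, against 377 and 399 in WT Treg. It had 458 and 453 in KO Teff, against 559 and 616 in WT Teff. KO was lower in each cell type without overlap, but neither difference passed (log2 fold change -0.18, adjusted p = 0.489 in Treg and -0.37, adjusted p = 0.0902 in Teff). The labels do not say which exons are deleted, so a value for the whole gene checks little. Of the defining Treg markers, Foxp3 had 111 and 117 in KO Treg and 89.1 and 92.2 in WT Treg, against 2.06 and 8.29 in KO Teff and 0 in both WT Teff libraries. Cd4 lay between 17062 and 25059 in all 8 libraries.

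The 7 genes fell into 3 patterns by cell type. Il23r, Il1r1, Il17a and Il17f were low in Treg and high in Teff in both genotypes, Ahr was high in Treg, and Rora and Ccr6 stood at like levels in WT Treg and WT Teff. RORalpha binds DNA at sites with AGGTCA as their core, and this core was searched on both strands in the 250 bases before each start site. The windows come from RefSeq on build GRCm38.p6, whose start sites can differ from the GENCODE gene spans given below. The Il17f window lies inside the span given for Il17f, so it is not upstream of the gene as annotated there. Windows were found for 6 of the 7 genes, 8 windows in all (Il1r1 and Ccr6 have 2 each), and not for Ahr. The core occurred in 4 of these 8 windows and in 14.0% of all 32851 RefSeq windows. The 4 windows are shown because they hold the core that the Rora protein reads, and they run 5′ to 3′ along the gene's strand, with AGGTCA or its reverse complement TGACCT in capitals.
Il17a, chr1:20730655-20730904, plus strand: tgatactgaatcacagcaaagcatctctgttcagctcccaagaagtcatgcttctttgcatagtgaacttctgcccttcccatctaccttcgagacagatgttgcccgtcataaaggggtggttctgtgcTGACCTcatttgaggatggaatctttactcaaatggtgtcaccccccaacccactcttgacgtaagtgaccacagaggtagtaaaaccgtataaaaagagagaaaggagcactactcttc
Il17f, chr1:20784271-20784520, minus strand: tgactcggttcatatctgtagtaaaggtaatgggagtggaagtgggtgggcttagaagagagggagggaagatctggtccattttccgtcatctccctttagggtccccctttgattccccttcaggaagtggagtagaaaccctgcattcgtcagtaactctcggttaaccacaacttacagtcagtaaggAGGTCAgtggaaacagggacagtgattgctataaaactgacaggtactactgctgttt
Il23r, chr6:67491856-67492105, minus strand: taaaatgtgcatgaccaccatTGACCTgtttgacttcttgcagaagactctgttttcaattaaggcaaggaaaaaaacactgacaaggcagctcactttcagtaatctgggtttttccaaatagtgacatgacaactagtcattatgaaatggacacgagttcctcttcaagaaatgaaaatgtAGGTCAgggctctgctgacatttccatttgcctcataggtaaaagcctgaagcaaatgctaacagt
Ccr6, chr17:8235793-8236042, plus strand: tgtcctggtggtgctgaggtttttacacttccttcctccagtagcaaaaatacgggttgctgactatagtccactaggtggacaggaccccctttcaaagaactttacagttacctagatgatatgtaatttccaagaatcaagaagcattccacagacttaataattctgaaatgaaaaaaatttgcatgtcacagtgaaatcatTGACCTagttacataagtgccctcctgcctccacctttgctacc

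The matches lay at these distances before the RefSeq start site: -120 in Il17a, -58 in Il17f, -229 and -66 in Il23r, and -44 in the first window of Ccr6. The letters do not occur in the windows of Rora and Il1r1 or in the second window of Ccr6. Another motif, TTCNNNGAA, bound by STAT factors, was found in 1 of the 8 windows, the first of Ccr6, at -157 and -120, and in 7.02% of all windows. TGANTCA, a loose form of the AP-1 site of BATF and JUN with any middle base, was found in 6.75% of all windows. Among the 8 windows it was found in that of Il17a at -244, as TGAATCA. The AP-1 site itself has C or G in the middle, which this match lacks. GCGTG, the core to which AHR binds, was found in the Rora window at -167 and the second Il1r1 window at -125, and in 28.2% of all windows. GGAAAA, the NFAT motif, was found in the windows of Rora, Il23r and Il17f and in 20.4% of all windows. No match overlapped one of another motif. A match of letters is a description of the sequence and not a measured binding site.

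**Figure D1:**
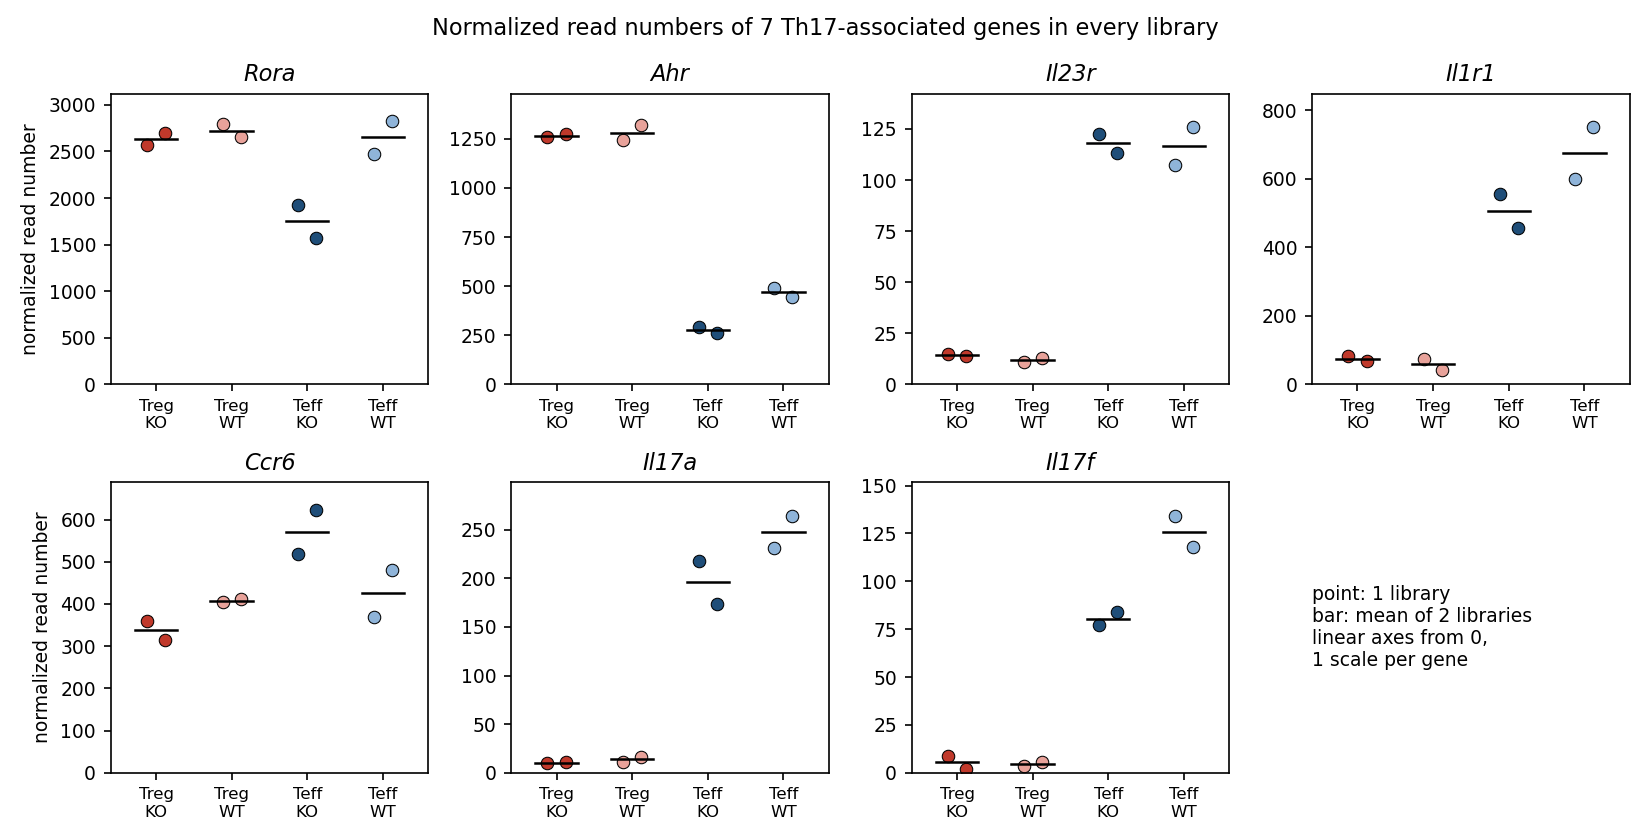
Normalized read number (vertical axes, linear from 0, a scale per gene) of the 7 genes in each library, by group; points are libraries and bars the means of 2. Il23r, Il1r1, Il17a and Il17f stand high in the 4 Teff libraries, Ahr stands high in the 4 Treg libraries, and Rora is lowest in the KO Teff libraries.

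Rora encodes RORalpha, the nuclear receptor that promotes the Th17 programme. It had 2567 and 2701 in KO Treg and 2795 and 2655 in WT Treg. It had 1928 and 1569 in KO Teff, against 2473 and 2829 in WT Teff. The KO Teff libraries were the lowest of all 8 and did not overlap any other group. The other 3 groups overlapped one another. Rora fell in KO against WT Teff by 0.60 on the log2 scale (SE 0.11, 95% CI -0.86 to -0.35, limma adjusted p = 0.0224), means 1749 ± 254 against 2651 ± 251 (SD, n = 2 each). In KO against WT Treg the log2 fold change was -0.05 (95% CI -0.31 to 0.21, limma adjusted p = 0.892). The Teff call was lost in a fit of the 4 Teff libraries alone (adjusted p = 0.0925), with neither trend nor robust shrinkage (adjusted p = 0.0732), without KO Teff replicate 2 (adjusted p = 0.0808) and without WT Teff replicate 2 (adjusted p = 0.112).

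Ahr had 1258 and 1273 in KO Treg and 1245 and 1318 in WT Treg. It had 294 and 261 in KO Teff, against 492 and 446 in WT Teff. All 4 Treg libraries lay above all 4 Teff libraries, and KO Teff lay below WT Teff without overlap. Ahr fell in KO against WT Teff by 0.76 on the log2 scale (SE 0.10, 95% CI -0.98 to -0.53, limma adjusted p = 0.00684), means 277 ± 23.6 against 469 ± 32.0 (SD, n = 2 each). In Treg the log2 fold change of KO over WT was -0.02 (95% CI -0.25 to 0.21, limma adjusted p = 0.963). The Teff call held when any one of the 8 libraries was left out, and was lost in a fit of the 4 Teff libraries alone (adjusted p = 0.0676).

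Rora and Ahr were thus 2 of the 7 genes called in KO against WT Teff, both lower. Over all tested genes 6.92% were called there and 5.08% were called lower. In bulk libraries, fewer cells of a type and less RNA per cell cannot be told apart. The activated and memory genes, which include Cd44, Icos and Tnfrsf4, summed to between 30075 and 34803 in KO Teff, against 46625 to 49267 in WT Teff. Of these, 9 of 11 were called lower. The calls of Cd44 and Icos were lost in a fit of the Teff libraries alone and with neither trend nor robust shrinkage. They were also lost with some single libraries left out, while that of Tnfrsf4 held in every refit. Proliferation genes summed to between 5719 and 5812 in KO Teff, against 9775 to 9784 in WT Teff, with 8 of 12 called lower. Naive and resting genes, such as Ccr7 and Lef1, summed to between 123911 and 125635 in KO Teff, against 97587 to 103549 in WT Teff. Of these, 3 of 10 were called higher, among them Ccr7 (limma adjusted p = 0.0136) but not Lef1 (limma adjusted p = 0.110). Sums of markers of other cells were compared as well. Treg markers, 6 of 6 in the table, summed to between 7029.7 and 7905 in KO Teff, against 10009 to 11463 in WT Teff. Of these, 4 (Nrp1, Ikzf2, Ctla4 and Tnfrsf18) were called lower, and Foxp3, at the values given above, was called higher. All Foxp3 values in Teff were below the minimum of 10 used for testing, which it reached through the Treg libraries alone. Its call in Teff is therefore a description only. NK and NKT cell markers, 6 of 7 in the table, summed to between 1409 and 1541 in KO Teff, against 2131 to 2244 in WT Teff, and their defining gene Ncr1 had 0 and 3.09 in KO Teff, against 8.04 and 7.06 in WT Teff. Of 5 tested, Nkg7 alone was called, lower. Macrophage and monocyte markers, 8 of 9 in the table, summed to between 787 and 1076 in KO Teff, against 1113 to 2513 in WT Teff, where the higher sum is that of 1 library, and none of the 8 was called. Dendritic cell markers, 6 of 7 in the table, summed to between 1181 and 1604 in KO Teff, against 1796 to 2618 in WT Teff. Of these Zbtb46 alone was called, lower, and its call was lost in a fit of the Teff libraries alone. In limma an unadjusted p below 0.05 was reached by 5 of 8 macrophage and 5 of 6 dendritic cell markers. Over all tested genes 21.6% reached it. The list medians were -1.04 and -1.16 on the log2 scale, against -0.02 over all tested genes. Markers of type 3 innate lymphoid cells, which share Il7r with the naive list, summed higher, to between 17026 and 19374 in KO Teff, against 12268 to 12486 in WT Teff. Treg sums of the state genes shifted as well. There naive and resting genes summed to between 62370 and 63425 in KO, against 49574 to 51083 in WT, with 3 of 10 called higher. Activated and memory genes summed to between 50391 and 50450 in KO Treg, against 58741 to 58818 in WT Treg, with none called. Proliferation genes summed to between 9562 and 10019 in KO Treg, against 12303 to 12399 in WT Treg, with 2 of 12 called lower. Over all tested genes 1.45% were called there. The part of these states and cells in the falls of Rora and Ahr was not tested.

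In KO against WT Treg none of the 7 genes was called by limma, where 1.45% of all tested genes were, and none had an unadjusted p below 0.05, where 14.7% of all tested genes did. The authors' deposited table called none of the 7 in Treg, where it called 3.28% of the genes to which it gave an adjusted p. In Teff the authors' deposited table called 2 of the 7, and 8.82% of its genes. In the authors' deposited table these were again Ahr (log2 fold change -0.76, adjusted p = 7.57e-06) and Rora (log2 fold change -0.60, adjusted p = 4.19e-05). Whether the KO effect differs between the cell types was tested as the difference of the effects, Treg minus Teff. None of the 7 passed, where 0.0225% of all tested genes did, and 3 had an unadjusted p below 0.05, where 10.4% of all tested genes did. For Ahr the difference was 0.74 (95% CI 0.42 to 1.06, limma adjusted p = 0.147), and for Rora it was 0.56 (95% CI 0.19 to 0.92, limma adjusted p = 0.294). The falls in Teff are therefore not shown to differ from the values in Treg.

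**Figure D2:**
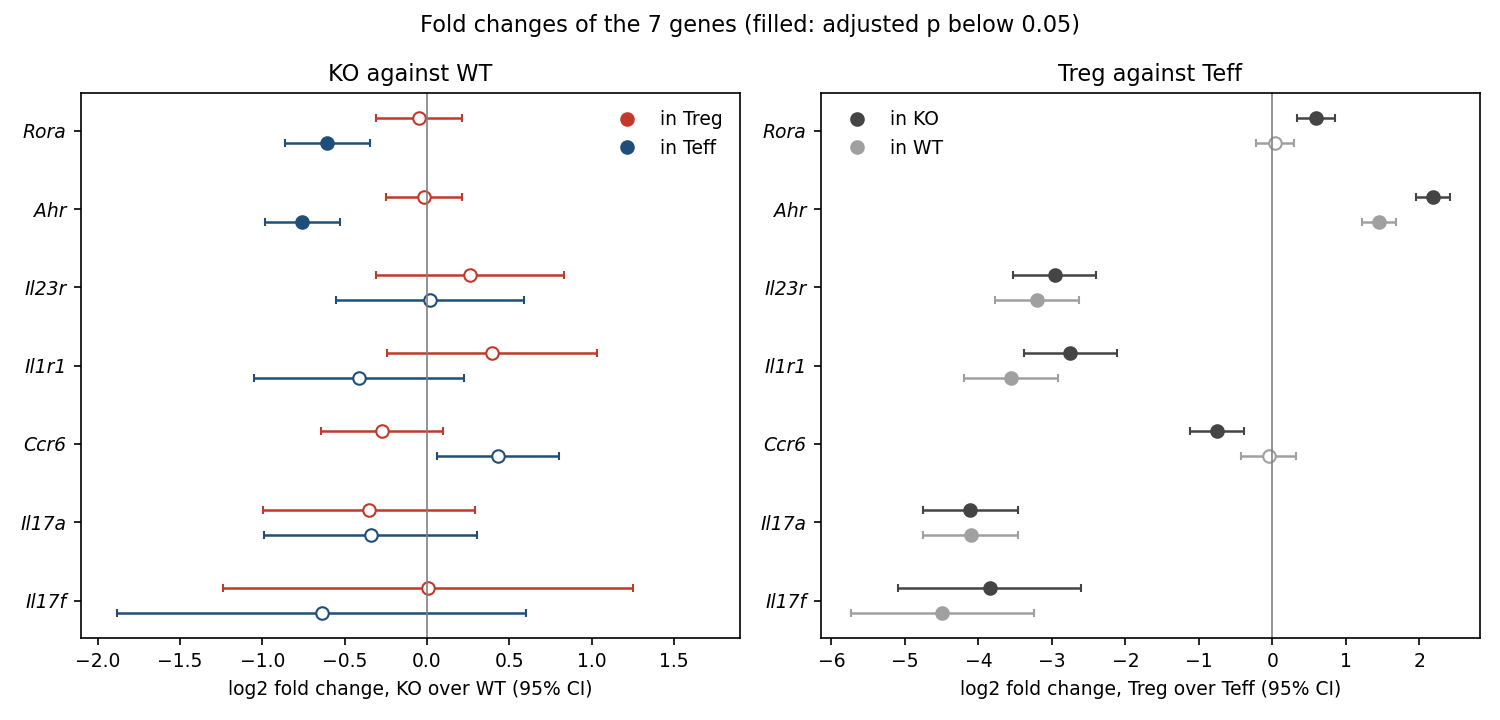
Log2 fold changes of the 7 genes (horizontal axes) with 95% confidence intervals, KO over WT in each cell type on the left and Treg over Teff in each genotype on the right; filled points passed an adjusted p of 0.05. On the left the filled points are Rora at -0.60 and Ahr at -0.76 in Teff; on the right Il23r, Il1r1, Il17a and Il17f lie below -2.5 in both genotypes, where the filter built a difference into Il17f.

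Ccr6 had its highest values in KO Teff, where Rora and Ahr had their lowest. It had 359 and 316 in KO Treg, against 404 and 411 in WT Treg. It had 519 and 623 in KO Teff, against 369.8 and 481 in WT Teff. KO libraries were thus lower than WT in Treg and higher than WT in Teff, each without overlap, and KO Teff was the highest of the 4 groups. Neither comparison passed. The log2 fold change of KO over WT was 0.43 in Teff (SE 0.16, 95% CI 0.06 to 0.80, limma adjusted p = 0.172) and -0.27 in Treg (95% CI -0.64 to 0.10, limma adjusted p = 0.489). The difference of the effects was -0.70 (95% CI -1.23 to -0.18, unadjusted p = 0.0152, limma adjusted p = 0.340).

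The receptor genes Il23r and Il1r1 separated the cell types in every library. Il23r encodes the chain of the IL-23 receptor that is particular to IL-23. It had 14.8 and 13.8 in KO Treg and 10.8 and 12.8 in WT Treg, against 123 and 113 in KO Teff and 107 and 126 in WT Teff. Il1r1 encodes the signalling receptor for IL-1. It had 83.1 and 66.5 in KO Treg and 73.2 and 43.1 in WT Treg, against 557 and 458 in KO Teff and 599.7 and 751 in WT Teff. For both genes the highest Treg library lay below the lowest Teff library.

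Neither receptor passed in KO against WT. For Il23r the log2 fold change was 0.02 in Teff (95% CI -0.55 to 0.59, limma adjusted p = 0.977) and 0.26 in Treg (95% CI -0.31 to 0.83, limma adjusted p = 0.685). Its Teff libraries of both genotypes overlapped, and in Treg KO lay above WT without overlap. For Il1r1 the log2 fold change was -0.41 in Teff (95% CI -1.05 to 0.23, limma adjusted p = 0.443), where KO lay below WT without overlap. In Treg it was 0.40 (95% CI -0.24 to 1.03, limma adjusted p = 0.567), with overlap. A missed threshold does not show that the genotypes are alike.

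Il17a and Il17f encode the signature cytokines, which are secreted as homodimers or as a heterodimer. Il17a had 9.84 and 10.8 in KO Treg and 10.8 and 16.7 in WT Treg, against 218 and 174 in KO Teff and 231 and 264 in WT Teff. Il17f had 8.91 and 2.22 in KO Treg and 3.70 and 5.74 in WT Treg, against 77.0 and 83.8 in KO Teff and 134 and 118 in WT Teff. In Teff both cytokine genes were lower in both KO libraries than in both WT libraries. Neither difference passed. The log2 fold change of KO over WT in Teff was -0.34 for Il17a (SE 0.27, 95% CI -0.99 to 0.30, limma adjusted p = 0.532). For Il17f it was -0.64 (SE 0.53, 95% CI -1.88 to 0.60, limma adjusted p = 0.547). In Treg it was -0.35 for Il17a (limma adjusted p = 0.618) and 0.01 for Il17f (limma adjusted p = 1.00), at values near or below the minimum of 10 used for testing.

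Il17f passed the filter on low values through the Teff libraries alone. All 4 of its Treg values were below 10, so a difference between the cell types was built into its passing. Il17a reached 10 in 3 of the 4 Treg libraries, and the other 5 genes reached it in all 8.

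Il17f is therefore left out of the counts that follow. In Treg against Teff of KO mice the other 6 genes were called, 2 higher and 4 lower in Treg. Over all tested genes 26.9% were called, 15.7% higher and 11.2% lower. In Treg against Teff of WT mice 4 of the 6 were called, 1 higher and 3 lower, where 25.1% of all tested genes were called, 13.5% higher and 11.6% lower. Ahr was higher in Treg by 2.19 in KO (SE 0.10, limma adjusted p = 1.22e-05) and by 1.45 in WT (limma adjusted p = 7.92e-05) on the log2 scale. Its Treg mean was 4.56 times the Teff mean in KO and 2.73 times in WT.

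The 4 genes low in Treg had large log2 fold changes of Treg over Teff. For Il23r it was -2.96 in KO (limma adjusted p = 0.000137) and -3.20 in WT (limma adjusted p = 0.000136). For Il1r1 it was -2.75 in KO (limma adjusted p = 0.000336) and -3.55 in WT (limma adjusted p = 0.000143). The Teff mean of Il1r1 was 6.78 times the Treg mean in KO and 11.6 times in WT. Il17a had -4.11 in KO (limma adjusted p = 5.95e-05) and -4.10 in WT (limma adjusted p = 7.92e-05), with a Teff mean 19.0 times the Treg mean in KO and 18.03 times in WT. For Il17f it was -3.85 in KO and -4.49 in WT (SE 0.53), given as a description only.

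Rora and Ccr6 were called between the cell types in KO and not in WT. Rora was higher in Treg by 0.60 on the log2 scale in KO (95% CI 0.34 to 0.86, limma adjusted p = 0.00656), and the log2 fold change was 0.04 in WT (95% CI -0.22 to 0.30, limma adjusted p = 0.821). Ccr6 was lower in Treg by a log2 fold change of -0.75 in KO (95% CI -1.12 to -0.38, limma adjusted p = 0.0111), and this was -0.05 in WT (95% CI -0.42 to 0.32, limma adjusted p = 0.854). The test of each difference between genotypes is the difference of the KO effects given above, which neither gene passed. The Ccr6 call in KO was lost without KO Treg replicate 2 (adjusted p = 0.0699) and without KO Teff replicate 2 (adjusted p = 0.0667).

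Markers of other cells differed between the sorts as well. Macrophage and monocyte markers summed to between 13610 and 14436 in KO Treg, against 787 to 1076 in KO Teff, and to between 23089 and 24051 in WT Treg, against 1113 to 2513 in WT Teff. Their defining receptor Csf1r had 2222 and 2033 in KO Treg and 3472 and 3655 in WT Treg, against 85.3 and 55.3 in KO Teff and 300.3 and 114 in WT Teff. NK and NKT markers summed to between 473 and 507 in KO Treg, against 1409 to 1541 in KO Teff, and to between 537 and 605 in WT Treg, against 2131 to 2244 in WT Teff, with Ncr1 at 0 in all 4 Treg libraries. Of 11 gamma delta T cell markers 4 were in the table, with sums of 23.7 to 27.6 in KO Treg, against 59.7 to 67.7 in KO Teff, and of 17.9 to 28.8 in WT Treg, against 83.4 to 97.0 in WT Teff, and Trdv4 was at 0 in all 4 KO libraries. The part of any of these cells in the levels of the 7 genes was not tested.

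To compare the genes with one another, values were divided by the length of each gene's merged exons (normalized reads per kilobase). In Teff the order was Ccr6, Il17a, Rora, Il1r1, Il23r, Ahr and Il17f in KO, at 246 ± 31.6, 167 ± 26.3, 134 ± 19.4, 79.7 ± 10.99, 47.4 ± 2.68, 45.0 ± 3.82 and 39.8 ± 2.35 reads per kilobase (SD, n = 2). In WT Teff it was Il17a, Rora, Ccr6, Il1r1, Ahr, Il17f and Il23r, at 211 ± 20.04, 203 ± 19.2, 183 ± 33.8, 106 ± 16.8, 76.1 ± 5.20, 62.3 ± 5.68 and 46.9 ± 5.28. The first 3 of WT Teff overlapped between their libraries, as did Il23r and Ahr in KO Teff. The sources do not say how values were summed over transcripts, so the order is approximate. In Treg, Ahr, Rora and Ccr6 reached 205 ± 1.79, 202 ± 7.27 and 145 ± 13.1 in KO and 208 ± 8.37, 208 ± 7.55 and 176 ± 2.03 in WT. The libraries of Ahr and Rora overlapped in both genotypes. The other 4 genes were at 2.75 to 11.8 reads per kilobase in KO Treg and at 2.33 to 11.7 in WT Treg.

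**Figure D3:**
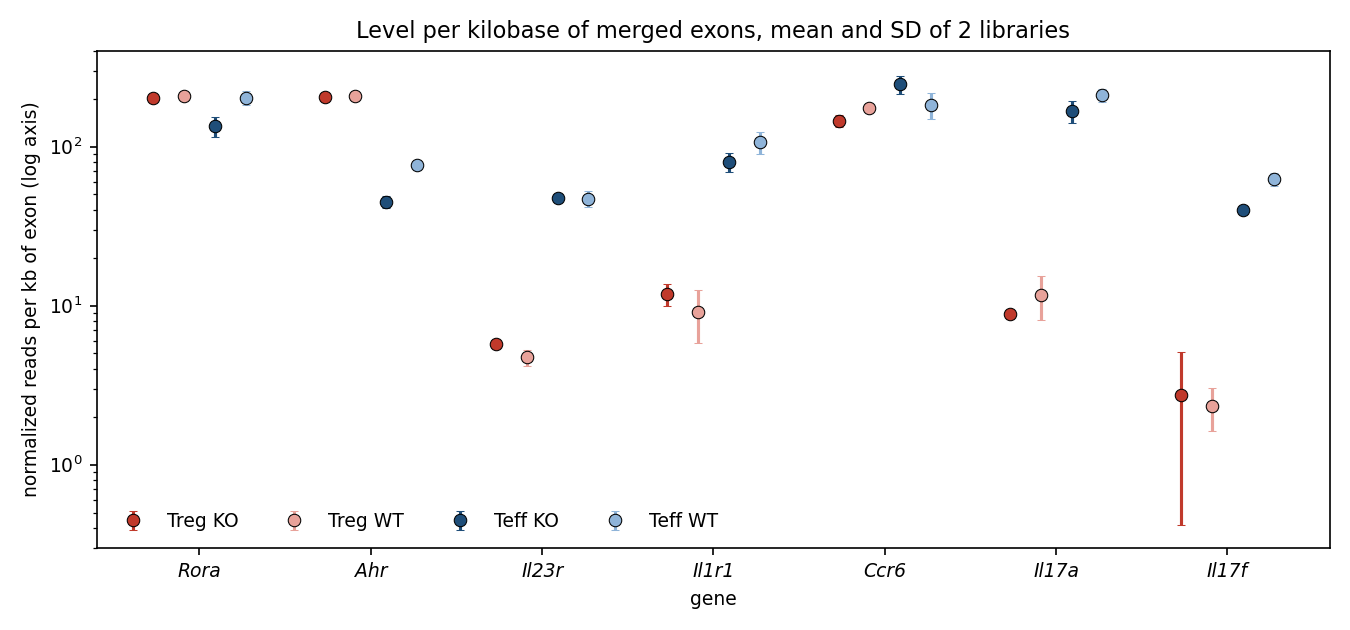
Normalized reads per kilobase of merged exon (vertical axis, logarithmic) for the 7 genes by group; points are means and bars the SD of 2 libraries. In both Treg groups Rora, Ahr and Ccr6 lie above 140, and the other 4 genes lie below 12.

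Il17a and Il17f lie side by side on chromosome 1 of GRCm38 in opposite orientation. Il17a spans positions 20730905 to 20734496 on the plus strand and Il17f 20777146 to 20790617 on the minus strand, with 42649 bp between them. Rora covers 68653786 to 69388246 of chromosome 9 (plus strand), Ahr 35497974 to 35535038 of chromosome 12 (minus), Il23r 67422932 to 67491855 of chromosome 6 (minus), and Ccr6 8236043 to 8257141 of chromosome 17 (plus). All spans hold exons and introns. Rora overlaps an antisense gene, Gm15511, Ahr overlaps Gm48236 on the other strand, and Il1r1 overlaps Gm38070 on its own strand. These partners are not analysed here. The overlaps are those of whole spans, and shared exons were not looked for. The library method as labelled names no step that marks the strand. Whether reads of such partners entered the values is therefore not known.

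Il1r1 belongs to a run of 6 IL-1 receptor family genes on the plus strand of chromosome 1, spread over 477627 bp, and not all of them are high in the same cell type. In order they are Il1r2 (a decoy receptor that binds IL-1 without signalling), Il1r1 (40225080 to 40317257), Il1rl2 (the IL-36 receptor), Il1rl1 (the IL-33 receptor ST2), Il18r1 and Il18rap (both chains of the IL-18 receptor). Il1r2 had 1663 and 1650 in KO Treg and 2206 and 2014 in WT Treg, against 148 and 89.1 in KO Teff and 271 and 293 in WT Teff. Il1rl2 had 34.0 and 21.7 in KO Treg and 32.3 and 36.6 in WT Treg, against 312 and 272 in KO Teff and 319.8 and 315 in WT Teff. Il1rl1 had 1606 and 1329 in KO Treg and 1653 and 1703 in WT Treg, against 184 and 65.0 in KO Teff and 62.3 and 66.3 in WT Teff. Il1r2 and Il1rl1 were thus high in Treg, and Il1r1 and Il1rl2 between them were high in Teff. Il18r1 had 2610.4 and 2496 in KO Treg and 2417 and 2377 in WT Treg, against 3218 and 3384 in KO Teff and 3377 and 3518 in WT Teff, lower in Treg in both genotypes (log2 fold change -0.37 in KO and -0.52 in WT, limma adjusted p = 0.00308 and 0.000731). Il18rap had 845 and 772 in KO Treg and 659 and 745 in WT Treg, against 606 and 554 in KO Teff and 898 and 788 in WT Teff. Its Treg over Teff change was called in KO (0.48, limma adjusted p = 0.0171, up to 0.100 with a library left out) and not in WT (-0.26, limma adjusted p = 0.133). For the genes with the wider gaps, the log2 fold changes of Treg over Teff were 3.84 in KO and 2.90 in WT for Il1r2 (limma adjusted p = 2.88e-05 and 0.000119). They were -3.38 in KO and -3.17 in WT for Il1rl2 (limma adjusted p = 7.48e-05 and 0.000136).

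**Figure D4:**
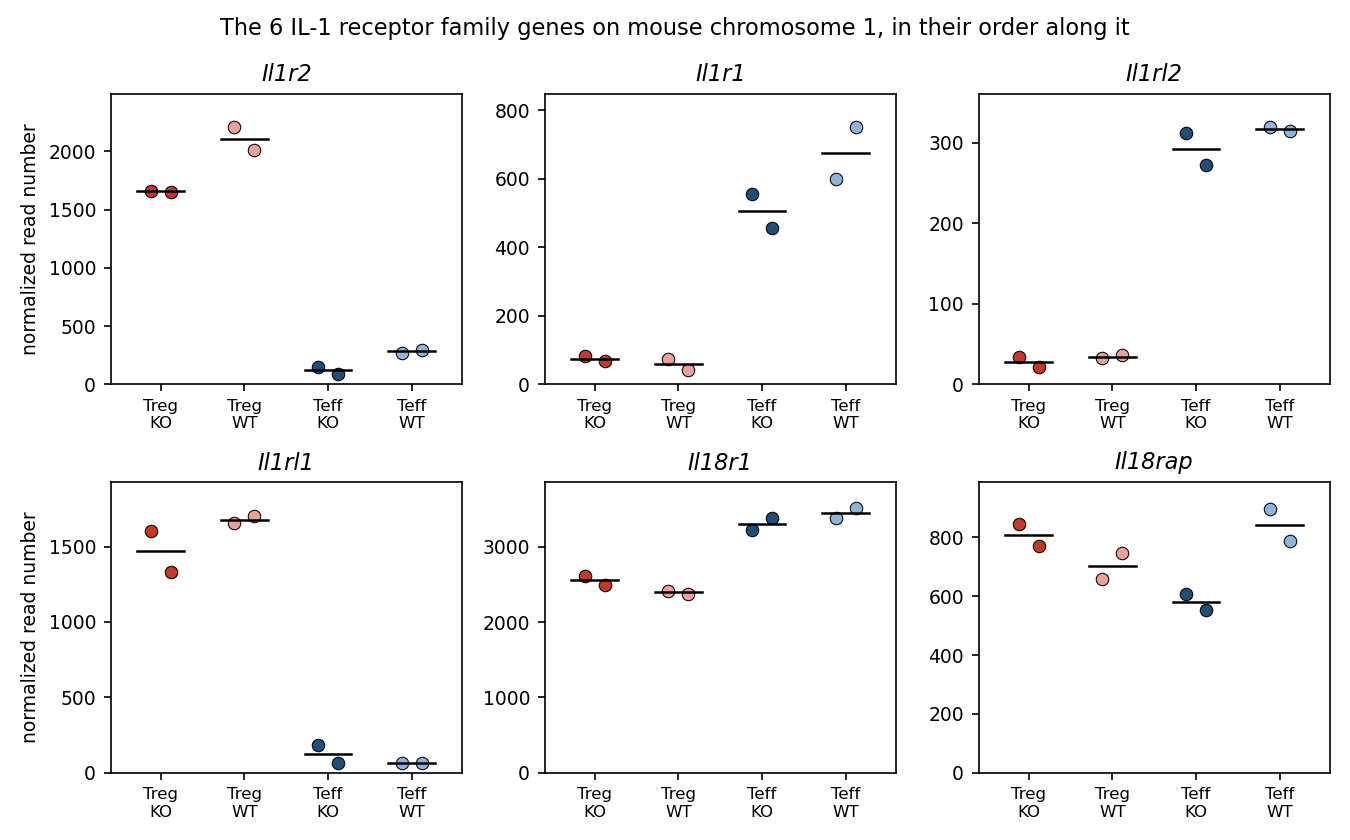
Normalized read number (vertical axes, linear from 0, a scale per gene) of the 6 IL-1 receptor family genes, in their order along chromosome 1; points are libraries and bars the means of 2. Il1r2 and Il1rl1 stand high in the Treg libraries, and Il1r1 and Il1rl2 in the Teff libraries.

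The decoy gene Il1r2 fell in KO against WT Teff by 1.29 on the log2 scale (SE 0.21, limma adjusted p = 0.0158), beside -0.41 for Il1r1, which did not pass. Il18rap fell by 0.54 (SE 0.11, limma adjusted p = 0.0327). These were the 2 called, both lower, of 14 tested IL-1 family receptor and signalling genes, where 6.92% of all tested genes were called and 5.08% were called lower, and the list median was -0.09 against -0.02 over all tested genes. In Treg 0 of the 14 were called by limma and 1 had an unadjusted p below 0.05, against 1.45% and 14.7% of all tested genes. The Il1r2 call was lost without either WT Teff replicate (adjusted p up to 0.0855) and the Il18rap call without any one of the 8 libraries (adjusted p up to 0.146). Both were also lost with neither trend nor robust shrinkage and in a fit of the Teff libraries alone, and that of Il18rap with quantile normalization.

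Around the 7 genes, transcription factors of the Th17 programme were followed as a list of 18, all tested and without Rora and Ahr. In KO against WT Teff, 6 fell, 1 rose and 11 did not pass, where 6.92% of all tested genes were called, with a list median of -0.18 on the log2 scale against -0.02 over all tested genes. BATF and IRF4 act together as pioneers at Th17 genes, and their genes fell by 0.53 and 0.86 (limma adjusted p = 0.00647 and 0.00438). Hif1a, the oxygen-sensing factor that favours Th17 over Treg cells, fell by 0.55 (limma adjusted p = 0.00360). Bhlhe40, needed for pathogenic cytokine output in EAE, fell by 1.15 (limma adjusted p = 0.00750). Maf, which drives Il10 and Il21, fell by 0.47, and Gfi1, a repressor in helper T cells, fell by 0.67 (limma adjusted p = 0.00888 and 0.00748). Satb1, a chromatin organizer high in resting T cells, rose by 0.32 (limma adjusted p = 0.0188). The Maf call was lost without WT Teff replicate 2 (adjusted p = 0.0513) and the Satb1 call without KO Teff replicate 1, KO Teff replicate 2 or WT Teff replicate 2 (adjusted p up to 0.0882). The fit of the Teff libraries alone ended the calls of Batf, Bhlhe40, Gfi1, Maf and Satb1 (adjusted p up to 0.0820), and leaving out trend and robust shrinkage ended those of Maf and Satb1.

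In KO against WT Treg, 2 of the 18 transcription factors fell and 1 rose, where 1.45% of all tested genes were called, with a list median of -0.06 against -0.01 over all tested genes. Hif1a fell by 0.40 and Irf4 by 0.56 (limma adjusted p = 0.0248 and 0.0429), and Satb1 rose by 0.43 (limma adjusted p = 0.0151). The calls of Hif1a and Satb1 were lost without any one of the 4 Treg libraries (adjusted p up to 0.174 and 0.141). The Irf4 call was lost without any one of these or of both KO Teff libraries (adjusted p up to 0.224). All 3 were lost with neither trend nor robust shrinkage (adjusted p up to 0.124).

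Of 14 further cytokines and products of the IL-17 lineage, 10 could be tested. In KO against WT Teff 3 fell, none rose and 7 did not pass, where 6.92% of all tested genes were called, with a list median of -0.82 against -0.02 over all tested genes. Il21, the cytokine that feeds back on Th17 and follicular helper cells, had 427 and 433 in KO Teff, against 812 and 789 in WT Teff, and fell by 0.90 on the log2 scale (limma adjusted p = 0.0322). Tnfsf11, which encodes RANKL, fell by 1.19 (limma adjusted p = 0.00179), and Furin, a protease that matures TGF-beta, fell by 0.72 (limma adjusted p = 0.00189). Il22, an AHR-dependent cytokine, had 215 and 171 in KO Teff, against 296 and 353 in WT Teff, and did not pass (log2 fold change -0.75, limma adjusted p = 0.448). In Treg, Il22 had 7.87 and 2.95 in KO and 7.84 and 2.94 in WT. None of the 10 was called in KO against WT Treg by limma, and 2 had an unadjusted p below 0.05, against 1.45% and 14.7% of all tested genes. The Il21 call was lost without any one of the WT Treg, KO Teff or WT Teff libraries (adjusted p up to 0.129) and with neither trend nor robust shrinkage (adjusted p = 0.0539).

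Of 12 chemokine receptors of helper T cells other than Ccr6, 7 fell and 1 rose in KO against WT Teff, and 4 did not pass, where 6.92% of all tested genes were called, with a list median of -0.67 against -0.02 over all tested genes. Cxcr3, the receptor of Th1 cells and also one of the activated and memory genes, fell by 0.80 and Ccr8, a receptor of Treg and Th2 cells, fell by 0.93 (limma adjusted p = 0.00144 and 0.00356). Cxcr5, Cxcr6, Ccrl2 and Ccr4 fell by 0.90, 0.87, 1.42 and 0.44 (limma adjusted p = 0.0244, 0.0263, 0.0314 and 0.0282). Ccr7, the receptor that holds naive cells in lymphoid organs, rose by 0.41 (limma adjusted p = 0.0136). Ccr6, at 0.43, had a positive log2 fold change like Ccr7 but did not pass. None of the 12 was called in KO against WT Treg by limma, and 4 had an unadjusted p below 0.05, against 1.45% and 14.7% of all tested genes. Leaving out WT Teff replicate 2 ended the calls of Cxcr5, Cxcr6, Ccrl2, Ccr4 and Ccr7 (adjusted p 0.0689 for Ccr7 and up to 0.133 for Cxcr6). Leaving out KO Teff replicate 2 ended those of Cxcr5, Cxcr6 and Ccr4. The calls of Cxcr6, Cxcr5 and Ccr4 were also lost without KO Teff replicate 1, those of Cxcr5, Ccrl2 and Ccr4 without WT Teff replicate 1, that of Ccrl2 without any one Treg library, and that of Ccr4 without either KO Treg library. The fit of the Teff libraries alone ended the calls of Ccr8, Cxcr6, Ccrl2, Ccr4 and Ccr7, and leaving out trend and robust shrinkage ended those of Cxcr5, Cxcr6, Ccrl2, Ccr4 and Ccr7.

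**Figure D5:**
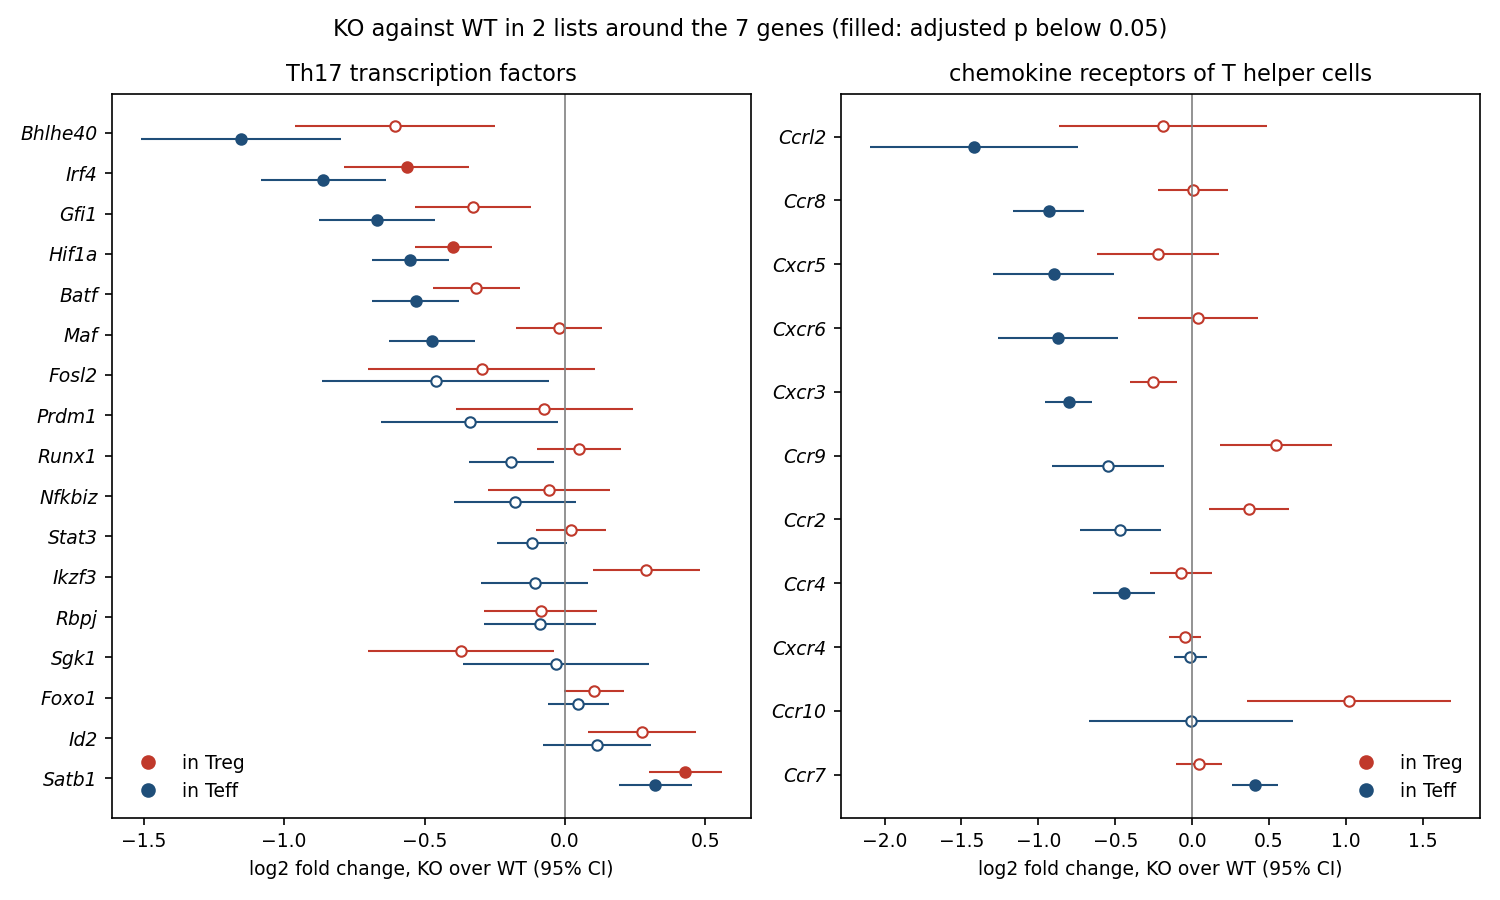
Log2 fold changes of KO over WT with 95% confidence intervals (horizontal axes) for 17 of the Th17 transcription factors and 11 of the chemokine receptors in Treg and Teff; filled points passed an adjusted p of 0.05. In Teff 6 factors and 6 receptors are filled on the negative side, and in Treg only Irf4, Hif1a and Satb1 are filled.

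Of 11 receptor chains and kinases for IL-6, IL-23 and TGF-beta, none was called by limma in KO against WT, with 4 at an unadjusted p below 0.05 in Treg and 6 in Teff. Over all tested genes 1.45% in Treg and 6.92% in Teff were called, and 14.7% in Treg and 21.6% in Teff had an unadjusted p below 0.05, so that none called among so few genes is near the background. Il12rb1, the chain that pairs with Il23r, had a log2 fold change of -0.74 in Teff (limma adjusted p = 0.0769), which passed without KO Teff replicate 2 (adjusted p = 0.0247), and Il6ra had 0.22 in Treg (limma adjusted p = 0.106). Of 6 IL-17 receptor genes none was called in KO against WT, with 2 at an unadjusted p below 0.05 in each cell type. Il17ra, the shared chain of the IL-17 receptor, had a log2 fold change of 0.28 in Treg (limma adjusted p = 0.0517), and passed with a pseudocount of 5 or a mean of at least 20. Il17rc, its partner for IL-17A and IL-17F, had 66.0 and 190.0 in KO Teff, against 380.3 and 329.7 in WT Teff (log2 fold change -1.65, limma adjusted p = 0.138), and 4.25 and 10.6 in KO Treg, against 6.23 and 6.99 in WT Treg.

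Genes that act with or are induced by AHR were followed as a further list. Of 10 such genes 7 could be tested, and none was called in KO against WT by limma. Over all tested genes 1.45% in Treg and 6.92% in Teff were called, so that none called among so few genes is near the background. An unadjusted p below 0.05 was reached by 3 in Treg and 1 in Teff, against 14.7% and 21.6% of all tested genes. The list median in Teff was -0.01 on the log2 scale, against -0.76 for Ahr. Ptges3, a co-chaperone of the receptor, had a log2 fold change of 0.24 in Teff (limma adjusted p = 0.0747). Hsp90ab1, which encodes its chaperone HSP90, had -0.13 in Treg (limma adjusted p = 0.206), and Arnt, its DNA-binding partner, had 0.21 in Treg (limma adjusted p = 0.323). Cyp1a1, the classical AHR target, stayed at or below 10.04 in every library and was not tested.

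The genes whose pattern was most like each of the 7 were taken by Pearson's r of log2(value + 1) over the 8 libraries, which share 2 cell types, so that r chiefly ranks how a gene splits Treg and Teff. For Ahr they were Tigit (r = 0.9995), an inhibitory receptor, Penk (r = 0.997), which encodes proenkephalin, and Zfp827 (r = 0.997). Tigit had 3340 and 3496 in KO Treg and 3408 and 3566 in WT Treg, against 668 and 571 in KO Teff and 1107 and 1043 in WT Teff, the same order of groups as Ahr. For Rora they were Chst11 (r = 0.995), a chondroitin sulfotransferase, Clgn (r = 0.995) and Septin5 (r = 0.984). Chst11 had 256 and 264 in KO Treg and 289 and 259 in WT Treg, against 154 and 118 in KO Teff and 221 and 283 in WT Teff. For Il17a they were Klrk1, which encodes the receptor NKG2D, Gzmk, a granzyme, and Pecam1 (r = 0.998 each), and for Il17f Emp1, Klri2 and Snx5 (r = 0.992 to 0.995). Il23r was most like Themis, Pde3b and Tmem176b (r = 0.998 each), and Il1r1 like Tgfbr2, the type II TGF-beta receptor, Wfikkn2 and Zbtb11 (r = 0.994 to 0.996). Ccr6 had none of the ranked genes above r = 0.944, reached by Rabl6.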

How the data were processed

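Poly(A) RNA of 4 groups of 2 libraries was read as single-end 50-base reads, per the labels' protocols. The submitters' processing notes list DESeq2 1.28.1, R 4.0.3, Trim Galore 0.4.4 and Salmon 0.14.1, and build mm10, the assembly called GRCm38 elsewhere. The authors deposited a signal value for each gene and library, which is normalized and holds fractions. The sources used here do not say how it was scaled or summed over transcripts. The deposited file also gives the authors' log2 fold changes and adjusted p-values, named as theirs where printed. Library sums of 17504097 to 18751258 show nearly even scale, but the reads behind a value are unknown, so no counting interval is given and precision rests on 2 libraries a group (r = 0.977 to 0.981 between them).

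Here limma 3.58.1 under R 4.3.3 was run on log2(value + 1), two-sided, with trend and robust shrinkage, 1 coefficient a group and 4 residual degrees of freedom. Of all genes, 13358 reached 10 in at least 2 libraries and entered the fit. Benjamini-Hochberg adjustment was done separately in 5 contrasts. The fit was tested on simulated data. Up to 18 alternatives a contrast varied the pseudocount, filter, scaling, shrinkage, samples fitted, a replicate block and the libraries left in. The 7 genes and all lists were chosen with earlier results of these data known. The text names the genes of a list called for KO, otherwise up to 3 of smallest p, and others singled out were chosen after their values were seen. Coordinates and exon lengths came from GENCODE M21 and start-site windows from RefSeq. Python 3.11.15, pandas 2.3.3 and matplotlib 3.10.9 were used. Some genes counted in the lists are not reported by name here.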

Additional observations from a re-analysis of the deposited data

How the results depend on the processing

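Of 623 refits of the 35 log2 fold changes of the 7 genes, 599 kept direction and call. The number of the 7 called in KO against WT Teff was 1 with neither trend nor robust shrinkage, 0 in a fit of the Teff libraries alone, and 1 to 2 when a library was left out. The cause was not tested, but the last 2 use fewer libraries. Directions turned in values that did not pass in any refit. For Ahr, KO over WT in Treg, the log2 fold change was 0.000341 under library totals and -0.059 to 0.023 with a library left out. For Il17f in Treg it was -0.016 at a pseudocount of 0.5 and -0.80 to 0.82 with a library left out, and for Il23r in Teff -0.10 to 0.13. The Treg minus Teff difference of Il17a was 0.064 at a pseudocount of 5, 0.0077 under library totals and -0.30 to 0.28 with a library left out, and that of Il17f was -0.17 to 1.46. Treg over Teff in WT was -0.054 to 0.14 for Rora and -0.24 to 0.14 for Ccr6 with a library left out, and 0.00491 for Ccr6 under library totals. Over all genes, 44 to 241 were called for KO in Treg (main 194) and 177 to 955 in Teff (main 924). Deviations of same-numbered libraries hardly correlated between groups (r -0.053 to 0.060). Such values cannot show whether libraries share mice, and the tests treat all 8 libraries as independent. With the replicate block the calls among the 7 stayed at 0 in KO against WT Treg, 2 in KO against WT Teff, 5 in Treg against Teff of WT and 7 in Treg against Teff of KO, Il17f included. The block called 114 genes for KO in Treg, and ended the calls of Hif1a and Irf4 there and of Il21 and Il18rap in Teff (adjusted p 0.0524 to 0.0832). In the fit of the Teff libraries alone, 2 of the Th17 transcription factors and 2 of the chemokine receptors were called. With 2 libraries a group, values near 10, as for Il17a and Il17f in Treg, cannot resolve small changes.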

Other observations

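RORalpha also acts in the circadian clock, where it drives Arntl in competition with the repressors Nr1d1 and Nr1d2. Of 12 clock and ROR-linked genes, none was called in KO against WT by limma in Treg or in Teff. Over all tested genes 1.45% in Treg and 6.92% in Teff were called, so that none called among so few genes is near the background. In each cell type 1 had an unadjusted p below 0.05, against 14.7% of all tested genes in Treg and 21.6% in Teff. The list medians were -0.03 in Treg and -0.06 in Teff on the log2 scale, against -0.01 and -0.02 over all tested genes. Nfil3, a clock-linked repressor, had a log2 fold change of -0.64 in Teff (limma adjusted p = 0.0761), and Dbp, a clock output factor, had 0.24 in Teff (limma adjusted p = 0.288). In Treg against Teff, 1 was called higher and 1 lower in KO, and 4 higher and 1 lower in WT, where 26.9% of all tested genes were called in KO and 25.1% in WT.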
